A study of Mus musculus with 6 samples.

Results

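The genes described here are 42 mouse genes of DNA damage signalling and repair, chosen by name from known functions in these pathways and found as rows of the deposited count table, which holds 33924 gene rows in all. The choice was made with earlier results of these data known. All 42 had enough reads to be tested, among 13406 tested genes. Cells that meet damaged DNA use a signalling layer and several repair routes. The kinases ATM and ATR sense double-strand breaks and single-stranded DNA and activate the checkpoint kinases CHK2 and CHK1. Breaks are then rejoined by end joining or by homologous recombination, crosslinks are opened by the Fanconi anaemia pathway, and damaged or mispaired bases are removed by excision and mismatch repair. In blood-forming cells these pathways protect stem cells that divide rarely as well as progenitors that divide often, and inherited loss of some of them leads to marrow failure or leukaemia.

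RNA was sequenced from 6 cultures of mouse acute myeloid leukaemia cells, 3 that arose from LSK cells (lineage-negative, Sca-1 positive, Kit positive, a stem cell-rich marrow fraction) and 3 from granulocyte-macrophage progenitors (GMP). Both kinds of cell had been transduced by retrovirus with the MLL-AF9 oncogene, expanded, and transplanted with wild-type marrow support cells into lethally irradiated syngeneic C57BL/6 recipients. Leukaemia cells were taken from the marrow of moribund mice and cultured with SCF, IL-3 and IL-6, so both groups share the oncogene, the passage through a mouse and the medium, and no library is labelled as drug-treated or as an untransformed control. The sources used here give no age, sex, clone or number of mice, and do not state that the libraries of a group are separate leukaemias, so p-values here measure no more than library-to-library spread, some of which can be technical. The series title asks whether the cell of origin bears on apoptotic priming and on sensitivity to LSD1 inhibition. Libraries are named by origin and number: LSK 44, LSK 45 and LSK 46, and GMP 5, GMP 11 and GMP 19.

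Library totals ran from 16640929 to 33885428 reads, of which 51442 to 98165 fell on the 42 genes. Expression is given as CPM, a gene's counts over the library's TMM-scaled total. Myeloid progenitor markers were present in both groups, with 13 of 13 listed genes tested. Their summed level was 3888 to 5367 CPM in the LSK-derived and 4059 to 6585 CPM in the GMP-derived libraries. The sums hide differences between genes. In the LSK-derived libraries 1 gene was called higher (Kit) and 4 lower (Ptprc, Ctsg, Hoxa9 and Csf3r). That is 38.5% of the list, against 25.7% of all tested genes. Mpo was at 795 to 1415 against 13.8 to 500 CPM and was not called. Ptprc, which encodes the leukocyte antigen CD45, was at 223 to 276 and 347 to 410 CPM. In the list of 6 B cell markers Pax5 and Ms4a1 had 0 counts in all 6 libraries, while Cd79b was higher in the LSK-derived ones (18.1 against 5.45 CPM, edgeR adjusted p = 0.00948), and the list summed to 14.3 to 21.9 against 3.65 to 7.75 CPM. Of 7 T and NK cell markers Cd3e and Ncr1 were at 0, while Klrb1c was higher in the LSK-derived libraries (0.734 against 0.0236 CPM, edgeR adjusted p = 0.00518), and the list summed to 0.484 to 1.22 against 0.119 to 0.147 CPM. The 8 mature neutrophil markers summed to 537 CPM in GMP 19 and to 15.7 and 62.7 CPM in GMP 5 and GMP 11, against 4.47 to 15.8 CPM in the LSK-derived libraries. Of the 5 tested, 2 were called lower in the LSK-derived libraries. The 1 called higher was Ly6g (3.21 against 0.926 CPM, edgeR adjusted p = 0.0142), so this list did not move as one. Other marker lists moved with the groups too: the 6 stem cell genes summed to 163 to 272 CPM in the LSK-derived and 0.564 to 0.821 CPM in the GMP-derived libraries, the 7 erythroid genes to 15.2 to 110 and 1.28 to 1.84 CPM, and the 5 megakaryocyte genes to 14.0 to 89.5 and 1.19 to 11.5 CPM. The part of these lists in the differences below was not tested. In bulk RNA, fewer cells of a type and less RNA per cell cannot be told apart.

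Most of the repair genes were at similar levels in leukaemias of both origins. Of the 42 genes, 4 were higher in the LSK-derived libraries (Xrcc5, Ddb2, H2afx and Parp1), 1 was lower (Fanca) and 37 were not called (edgeR's quasi-likelihood test, Benjamini-Hochberg adjusted p under 0.05). The called share was 11.9%, while 25.7% of all tested genes were called (11.8% higher and 13.9% lower). The median absolute log2 fold change was 0.16 over the repair genes and 0.25 over all tested genes. The repair genes were also the better covered, with a median level of 57.6 CPM against 27.1 CPM. Fold changes of genes with few reads are noisier, and the part of coverage in these sizes was not tested. Only Xrcc5 and Ddb2 differed by 2-fold or more, which is 4.76% of the list, against 14.4% of all tested genes. At an unadjusted p below 0.05 there were 14 repair genes (33.3%), against 39.3% of all tested genes.

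**Figure D1:**
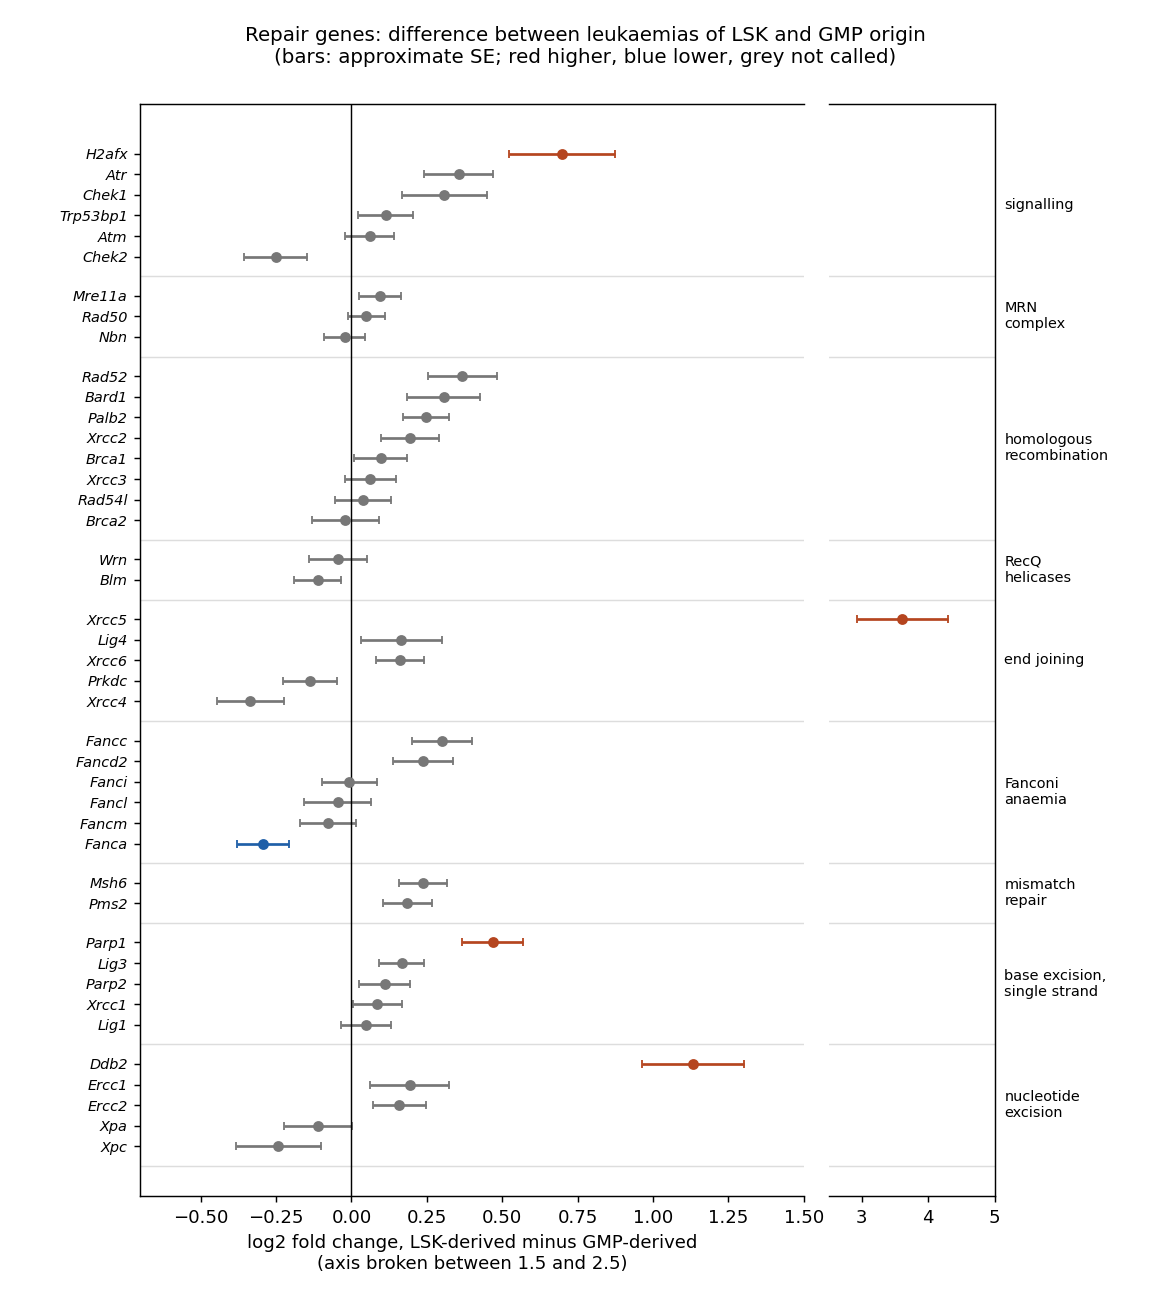
Log2 fold change (LSK-derived minus GMP-derived, x axis, broken between 1.5 and 2.5) of each of the 42 repair genes (y axis, grouped by role). Points are edgeR estimates and bars are the approximate SE, with called genes in colour. Only Xrcc5 (3.61) and Ddb2 (1.13) lie beyond 1, and 29 of 42 points lie above 0.

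The small differences leaned to the LSK-derived side. The fold change was above 0 in 29 of 42 genes (69.0%), against 51.4% of all tested genes, with a median log2 fold change of 0.10 against 0.01. The 3 libraries of one group lay wholly above or below the other group's in 16 repair genes (38.1%), 13 of them higher and 3 lower in the LSK-derived libraries, against 45.4% of all tested genes. That order turned with scaling to the S phase list (47.6% against 37.4%), with no filter (40.5% against 33.6%) and without LSK 45 (61.9% against 57.5%). Single libraries took part in this pattern. GMP 19 had the lowest GMP-derived value in 31 of the 42 genes and LSK 45 the lowest LSK-derived value in 27, and the summed level of 38 S phase and mitosis genes was also lowest in those libraries (9190 CPM in GMP 19 against 9440 and 10053 CPM in GMP 5 and GMP 11, and 8942 CPM in LSK 45 against 10240 and 9988 CPM in LSK 44 and LSK 46). The highest values did not match in this way. GMP 5 had the highest GMP-derived value in 23 of the 42 genes, while its S phase sum was below that of GMP 11. The part of these library differences, and of the neutrophil markers of GMP 19, in the result was not tested. The median log2 fold change of the repair genes was 0.06 without GMP 19, 0.14 without LSK 45 and 0.08 to 0.13 without any 1 of the other 4 libraries.

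Promoters of 3 called genes are shown to set their make-up beside that of the other repair genes. RefSeq's promoter table (GRCm38.p6) held 37 promoters for 33 of the 42 genes, among them the called genes Xrcc5, Parp1 and Fanca. Each sequence below is the 250 bases before the annotated start, 5′ to 3′ on the gene's strand, in lower case with matches to a searched motif in capitals. The motifs were the E2F motif TTTCCCGC or TTTGGCGC, the CCAAT box CCAAT, the NRF1 motif CGCATGCG and the Sp1 motif GGGCGG, each on both strands. The E2F and Sp1 letters can share bases.
Xrcc5 (chr1:72307171-72307420, plus strand): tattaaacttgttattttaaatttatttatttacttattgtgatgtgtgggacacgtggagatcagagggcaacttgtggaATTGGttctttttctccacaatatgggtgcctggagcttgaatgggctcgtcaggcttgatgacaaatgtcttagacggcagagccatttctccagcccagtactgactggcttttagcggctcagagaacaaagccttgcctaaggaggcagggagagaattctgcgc
Parp1 (chr1:180568641-180568890, plus strand): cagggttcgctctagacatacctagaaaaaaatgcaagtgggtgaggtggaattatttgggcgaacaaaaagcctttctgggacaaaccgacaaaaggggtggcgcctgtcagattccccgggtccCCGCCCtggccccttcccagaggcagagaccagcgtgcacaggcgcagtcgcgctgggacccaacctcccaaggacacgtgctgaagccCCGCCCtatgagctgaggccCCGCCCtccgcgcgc
Fanca (chr8:123318577-123318826, minus strand): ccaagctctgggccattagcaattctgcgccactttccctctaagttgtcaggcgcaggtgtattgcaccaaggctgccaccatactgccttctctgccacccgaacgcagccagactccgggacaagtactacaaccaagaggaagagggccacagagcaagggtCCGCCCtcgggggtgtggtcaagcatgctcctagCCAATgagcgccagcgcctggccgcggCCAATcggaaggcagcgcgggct

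These 3 promoters differed in make-up. That of Parp1 held 3 Sp1 matches, that of Fanca 1 Sp1 match and 2 CCAAT boxes, and that of Xrcc5 a single CCAAT box, with a GC content of 61.6% for Parp1 and Fanca and 44.8% for Xrcc5. Over the 37 repair gene promoters, 64.9% held an Sp1 match and 45.9% a CCAAT box, against 32.7% and 33.8% of all 32851 promoters of the same length. The E2F letters were in 4 of the 37 (Bard1, Brca2, Chek2 and Xrcc6, or 10.8%), against 1.30% of all promoters, and the NRF1 letters in 3 (8.11% against 1.55%). None of the 4 genes with the E2F letters was called between the leukaemias. With 11.9% of the repair genes and 25.7% of all tested genes called, 4 genes are too few to read this either way. The called genes Ddb2 and H2afx had no promoter entry. A match describes the letters of this window and is no measure of binding.

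The signalling genes were led by H2afx, which encodes H2AX, the histone variant that is phosphorylated around double-strand breaks. H2afx had 97.3, 98.7 and 123 CPM across LSK 44, 45 and 46 and 49.5, 72.5 and 74.7 CPM across GMP 5, 11 and 19. Every LSK-derived library was above every GMP-derived one, with GMP 5 the lowest of all. H2afx rose 1.62-fold in the LSK-derived group (106 ± 14.5 against 65.6 ± 13.9 CPM, SD, n = 3 each, log2 fold change 0.70 ± 0.18 approximate SE, edgeR adjusted p = 0.0299). The call was lost without LSK 44, LSK 45, LSK 46 or GMP 11 (adjusted p up to 0.0948) and against a minimum fold of 1.2 (0.0743), in a range from 0.00103 over 17 alternatives.

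The apical kinases differed less. Atm, which encodes the kinase that responds to double-strand breaks, had 73.1, 76.2 and 72.8 CPM across LSK 44, 45 and 46 and 72.3, 76.3 and 64.4 CPM across GMP 5, 11 and 19. These groups overlap, and Atm was not called (log2 fold change 0.06 ± 0.08, edgeR adjusted p = 0.618). Atr, which encodes the kinase that responds to stalled replication forks, was at 115, 103 and 108 CPM in the LSK-derived and 95.7, 87.7 and 71.3 CPM in the GMP-derived libraries in the same order. Its groups did not overlap and GMP 19 was lowest, but Atr missed the threshold (log2 fold change 0.36 ± 0.11, edgeR adjusted p = 0.0603). It was called by DESeq2 (adjusted p = 0.0241), by limma voom with sample weights (0.0253) and without GMP 5 (0.0302), in a range up to 0.309.

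The checkpoint kinase genes leaned opposite ways. Chek1, the target of ATR, had 67.4, 59.1 and 69.0 CPM across LSK 44, 45 and 46 and 61.8, 53.4 and 42.9 CPM across GMP 5, 11 and 19 (log2 fold change 0.31 ± 0.14, edgeR adjusted p = 0.150). Chek2, the target of ATM, was at 37.2, 36.0 and 40.8 CPM and at 49.1, 39.6 and 47.0 CPM (log2 fold change -0.25 ± 0.10, edgeR adjusted p = 0.121). Both genes overlapped between the groups by a single library, LSK 45 below GMP 5 for Chek1 and LSK 46 above GMP 11 for Chek2. Neither was called, apart from Chek1 without GMP 5 (adjusted p = 0.0470, in a range up to 0.508). Trp53bp1, which encodes 53BP1, a chromatin reader that shields broken ends from resection, was at 71.1, 63.3 and 69.1 CPM against 68.2, 62.9 and 57.0 CPM. Its groups overlap and it was not called (edgeR adjusted p = 0.395).

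The MRN complex, which binds broken ends and recruits ATM, was level between the groups. Its genes Mre11a, Rad50 and Nbn had log2 fold changes from -0.02 to 0.09, none was called, and none had groups apart. Rad50 ran from 123 to 135 CPM over all 6 libraries and Nbn from 47.8 to 51.5 CPM.

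Homologous recombination, which copies the intact sister chromatid, had no called gene among 8. Brca1, which promotes resection and loading of the recombinase, had 98.1, 87.6 and 97.3 CPM across LSK 44, 45 and 46 and 93.1, 92.1 and 79.3 CPM across GMP 5, 11 and 19 (log2 fold change 0.10 ± 0.09, edgeR adjusted p = 0.456). Brca2, which loads the recombinase, was at 58.3, 49.4 and 59.7 CPM and at 59.8, 60.1 and 49.8 CPM (log2 fold change -0.02 ± 0.11, edgeR adjusted p = 0.913). Both genes overlapped between the groups, and the lowest value of each was in LSK 45 or GMP 19. Their partner genes stood closer to the threshold. Palb2, which bridges BRCA1 and BRCA2, was at 32.0 ± 1.36 against 26.9 ± 0.723 CPM (n = 3 each, edgeR adjusted p = 0.0528). Rad52, an annealing factor, was at 14.3 ± 0.461 against 11.1 ± 0.955 CPM (edgeR adjusted p = 0.0554). Bard1, which encodes the partner of BRCA1 in its ubiquitin ligase, was at 43.5 ± 3.89 against 35.1 ± 4.56 CPM (edgeR adjusted p = 0.106). In these 3 genes the groups did not overlap, and Rad52 was called in 6 of 17 alternatives and Palb2 in 4 of 17. Xrcc2, Xrcc3 and Rad54l had log2 fold changes from 0.04 to 0.20 with overlapping groups. The RecQ helicase genes Blm and Wrn, which act on recombination and replication intermediates, were at -0.11 and -0.04 and also overlapped.

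**Figure D2:**
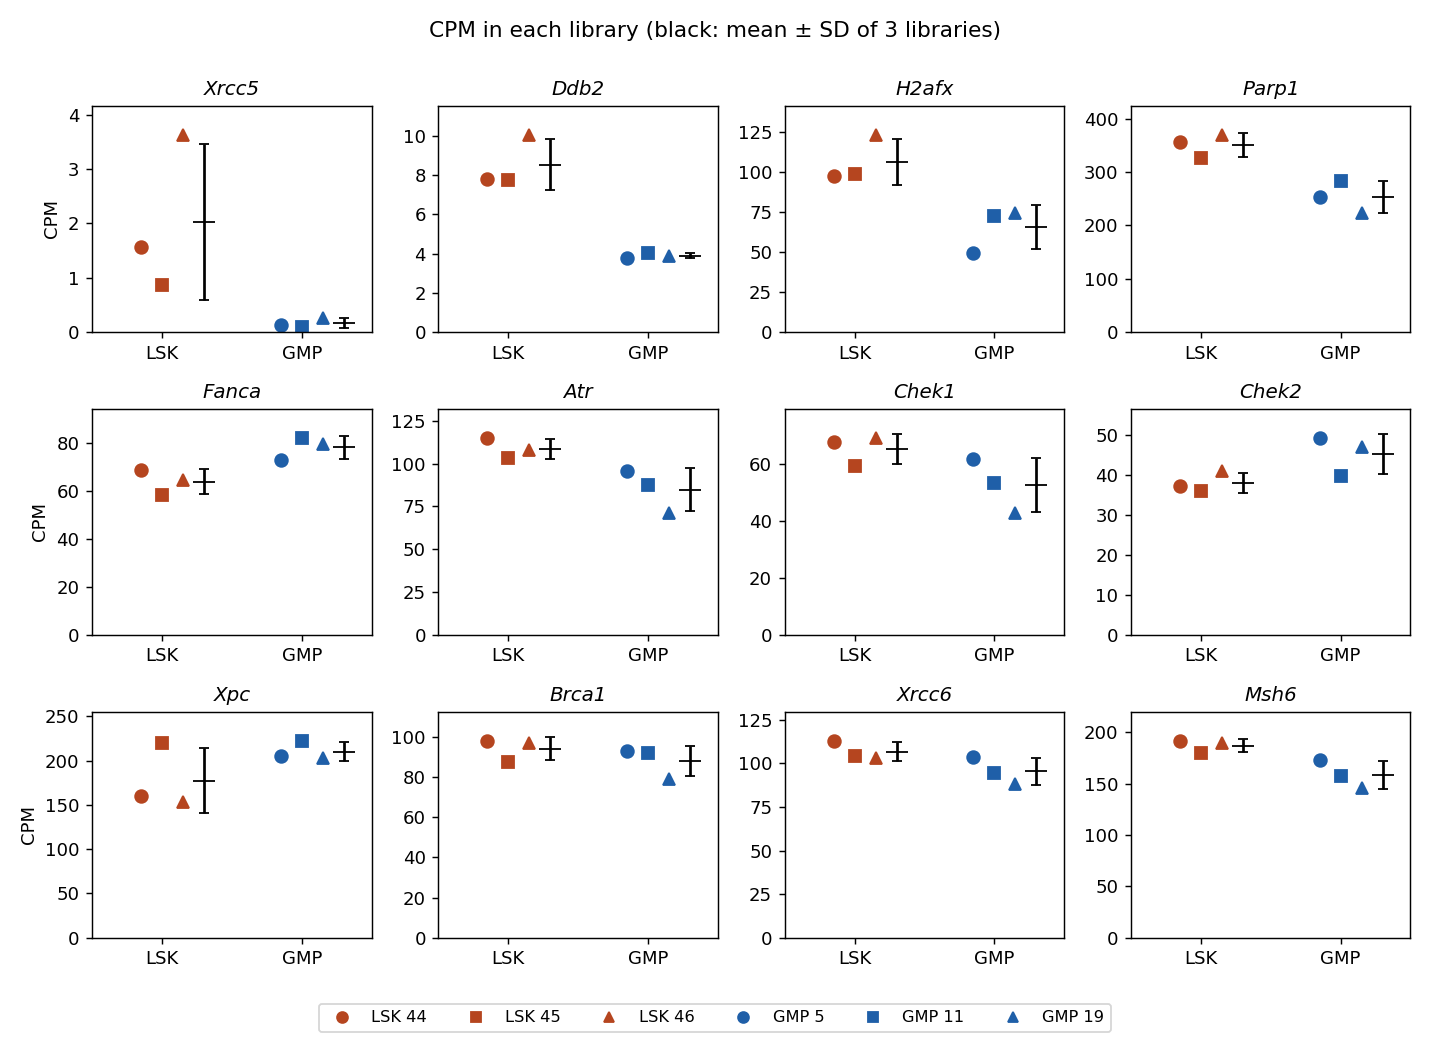
CPM (y axis, from 0) of 12 repair genes in each library, with LSK-derived libraries in red, GMP-derived in blue and the mean ± SD of 3 libraries in black. Xrcc5, Ddb2, H2afx and Parp1 lie higher in every LSK-derived library. So do Atr and Msh6, which were not called, while Brca1 and Chek1 overlap between the groups.

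End joining held both the largest difference of the list and its lowest level. Xrcc5 encodes Ku80, and Xrcc6 encodes Ku70, with which it forms the ring that binds broken ends. Xrcc5 had 1.57, 0.863 and 3.62 CPM across LSK 44, 45 and 46 and 0.123, 0.0891 and 0.264 CPM across GMP 5, 11 and 19. The groups did not overlap, and LSK 46 was the highest library. These values rest on 26, 22 and 87 reads and on 3, 3 and 9 reads, so GMP 5 and GMP 11 stood at the 3 reads that a count of 0 allows. Xrcc5 rose in the LSK-derived libraries (log2 fold change 3.61 ± 0.68 approximate SE, edgeR adjusted p = 0.0112), and the ratio of pooled CPM, 135 against 15 reads, was 12.5 (exact 95% interval 7.34 to 23.0, which covers counting error only). The log2 fold change was 2.86 without LSK 46 and 4.22 without GMP 19. Xrcc5 stayed called in all 16 alternatives that tested it, while 1 filter, at least 1 CPM in 3 libraries, removed it. In the main fit it passed the read filter through the LSK-derived libraries alone, the group where it is high. The alternatives refit the same counts, so its staying called is no independent support.

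Xrcc6 had 113, 104 and 103 CPM across LSK 44, 45 and 46 and 104, 94.7 and 88.2 CPM across GMP 5, 11 and 19. It was not called (log2 fold change 0.16 ± 0.08, edgeR adjusted p = 0.186), and LSK 46 and GMP 5 overlapped. Per kb of exon, the Xrcc5 level was 0.0145 to 0.0615 of the Xrcc6 level in the LSK-derived and 0.00165 to 0.00524 in the GMP-derived libraries. Xrcc5 thus lay far below its partner per kb in all 6 libraries. No exon of another gene overlaps Xrcc5 in the GENCODE M21 annotation on GRCm38. The annotation behind the deposited counts is not given in the sources used here, so how fully reads of Xrcc5 were counted was not tested.

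The other end joining genes were not called. Prkdc, which encodes the DNA-dependent kinase that Ku recruits, had 63.9, 67.1 and 66.4 CPM across LSK 44, 45 and 46 and 79.8, 72.9 and 64.6 CPM across GMP 5, 11 and 19 (edgeR adjusted p = 0.299). Lig4, the ligase of this route, was at 10.3, 11.1 and 10.4 CPM and at 10.7, 8.96 and 8.74 CPM (edgeR adjusted p = 0.405). Both overlapped between the groups. Xrcc4, the scaffold of LIG4, was at 10.4 ± 0.367 against 13.2 ± 0.681 CPM without overlap, and missed the threshold (log2 fold change -0.34 ± 0.11, edgeR adjusted p = 0.0639; called with sample weights, 0.0409, in a range up to 0.354).

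In the Fanconi anaemia pathway, which unhooks crosslinks between strands, Fanca was lower in the LSK-derived libraries. Fanca, a subunit of the core ubiquitin ligase, had 68.5, 58.4 and 64.5 CPM across LSK 44, 45 and 46 and 72.9, 82.0 and 79.4 CPM across GMP 5, 11 and 19. The groups did not overlap, with LSK 44 and GMP 5 closest to each other. Fanca fell 1.22-fold (63.8 ± 5.12 against 78.1 ± 4.66 CPM, log2 fold change -0.29 ± 0.09, edgeR adjusted p = 0.0457), and the call was lost in 5 of 6 fits without a library, all but GMP 5 (adjusted p up to 0.125), with upper-quartile scaling (0.0606), with scaling to the S phase list (0.0670) and against a minimum fold of 1.2 (0.461), in a range from 0.0171. Exons of the tested gene Zfp276 overlap 10.5% of Fanca's exon bases in GENCODE M21, and Zfp276 was at 14.2 against 18.0 CPM (edgeR adjusted p = 0.0935).

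Fancd2, which encodes the protein that this ligase modifies, had 80.9, 71.3 and 75.6 CPM across LSK 44, 45 and 46 and 67.0, 69.6 and 56.6 CPM across GMP 5, 11 and 19. The groups came close without overlap, and Fancd2 was not called (log2 fold change 0.24 ± 0.10, edgeR adjusted p = 0.121). Fancc, another core subunit gene, was at 19.2 ± 0.866 against 15.6 ± 0.938 CPM, opposite in direction to Fanca (log2 fold change 0.30 ± 0.10, edgeR adjusted p = 0.0638). Fanci, Fancl and Fancm had log2 fold changes from -0.08 to -0.01 with overlapping groups.

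The 5 genes of base excision and single-strand break repair all had fold changes above 0. Parp1, which encodes the enzyme that marks breaks with poly(ADP-ribose), had 356, 325 and 369 CPM across LSK 44, 45 and 46 and 253, 283 and 223 CPM across GMP 5, 11 and 19. All LSK-derived values were above all GMP-derived ones, and GMP 19 was lowest. Parp1 rose 1.38-fold (350 ± 22.4 against 253 ± 29.7 CPM, log2 fold change 0.47 ± 0.10, edgeR adjusted p = 0.0167). It lost the call without LSK 44 (0.0642) or LSK 46 (0.0662) and against a minimum fold of 1.2 (0.0771), in a range from 0.000153. Its relative Parp2 was at 86.7 ± 3.23 against 80.3 ± 7.37 CPM and was not called (edgeR adjusted p = 0.376). The ligase genes Lig1, which seals replication and excision gaps, and Lig3, and the scaffold gene Xrcc1, had log2 fold changes of 0.05, 0.17 and 0.09 and were not called.

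Nucleotide excision repair, which removes bulky lesions, held the largest difference of the list after that of Xrcc5. Ddb2, which encodes the subunit that finds ultraviolet photoproducts and hands them to XPC, had 7.80, 7.77 and 10.0 CPM across LSK 44, 45 and 46 and 3.77, 4.04 and 3.87 CPM across GMP 5, 11 and 19. These values rest on 129, 198 and 241 reads and on 92, 136 and 132 reads, the fewest of the list after Xrcc5. The groups lay well apart, with LSK 46 highest. Ddb2 rose 2.19-fold (8.54 ± 1.30 against 3.89 ± 0.135 CPM, log2 fold change 1.13 ± 0.17, edgeR adjusted p = 0.00478) and stayed called in all 17 alternatives, with log2 fold changes of at least 1.00. In GENCODE M21, exons of Acp2 overlap 23.8% of the Ddb2 exon bases, and Acp2 fell where Ddb2 rose (27.3 against 40.0 CPM, edgeR adjusted p = 0.0163).

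Xpc, the lesion-recognition factor that follows DDB2, had 160, 219 and 153 CPM across LSK 44, 45 and 46 and 205, 222 and 203 CPM across GMP 5, 11 and 19. LSK 45 lay with the GMP-derived libraries and the other LSK-derived ones below them, so the groups overlapped and Xpc was not called (log2 fold change -0.24 ± 0.14, edgeR adjusted p = 0.248). Without LSK 45 it was called as lower (log2 fold change -0.42, adjusted p = 0.0160, in a range up to 0.712). Ercc1 and Ercc2, which encode a nuclease subunit and a helicase of this route, had log2 fold changes of 0.19 and 0.16, and the damage-binding factor gene Xpa -0.11, and none was called.

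Both mismatch repair genes were nearer to the threshold than most. Msh6, which encodes a mismatch-recognition subunit, had 192, 180 and 190 CPM across LSK 44, 45 and 46 and 173, 158 and 146 CPM across GMP 5, 11 and 19. The groups did not overlap, yet Msh6 missed the threshold (log2 fold change 0.24 ± 0.08, edgeR adjusted p = 0.0702) and was called without GMP 5 (0.0313), by DESeq2 (0.0314) and with sample weights (0.0264), in a range up to 0.737. Pms2, an endonuclease subunit gene, was at 54.5 ± 2.03 against 48.0 ± 3.63 CPM (edgeR adjusted p = 0.139).

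**Figure D3:**
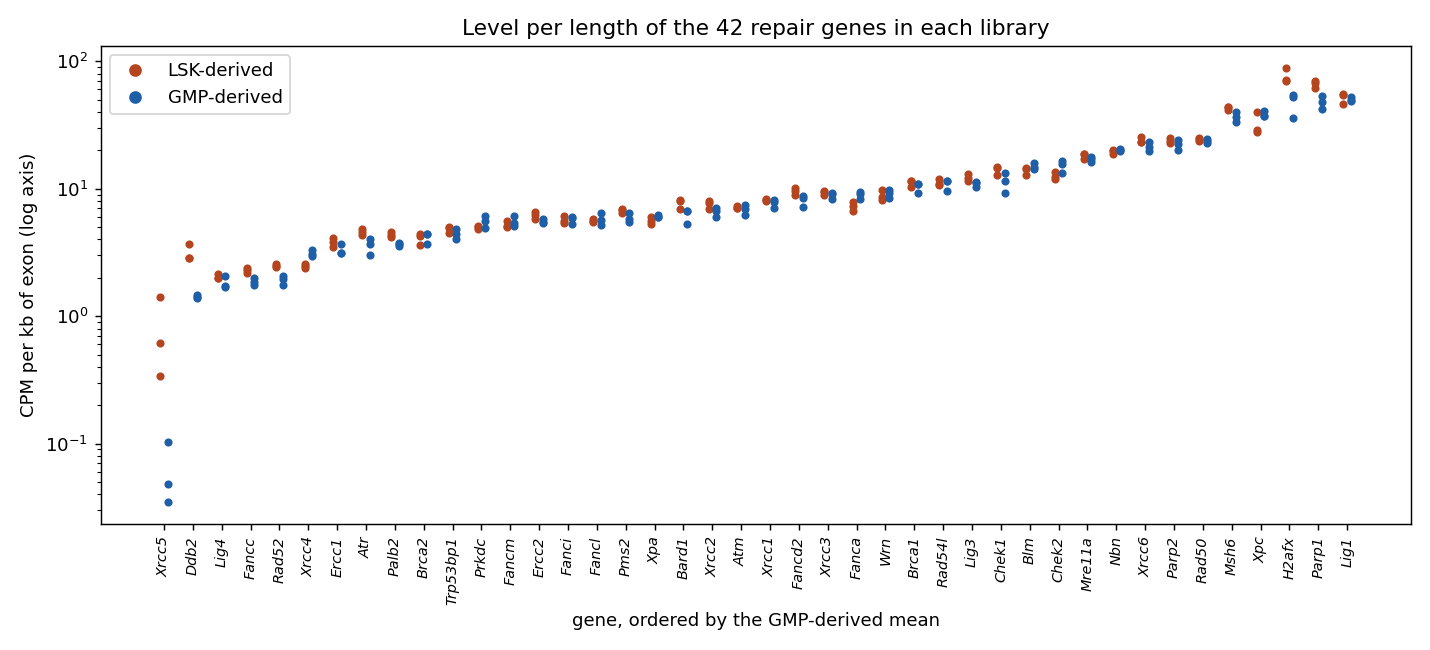
CPM per kb of exon (y axis, log scale) of the 42 repair genes (x axis, ordered by the GMP-derived mean) in each of 3 LSK-derived (red) and 3 GMP-derived (blue) libraries. Xrcc5 lies below all other genes in both groups, and H2afx, Parp1 and Lig1 lie at the top.

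Per kb of exon (exon lengths from GENCODE M21), the levels of the 42 genes covered a wide range. In the LSK-derived libraries the highest means were those of H2afx (76.9 CPM per kb), Parp1 (66.1), Lig1 (52.0) and Msh6 (43.0). In the GMP-derived libraries the ranges of Lig1 (mean 50.3, range 49.0 to 52.0), Parp1 (47.8, 42.2 to 53.4) and H2afx (47.4, 35.8 to 54.0) overlapped, so their order is not separated by the spread. At the low end, after Xrcc5 (0.791 and 0.0621), came Ddb2 (1.42) in the GMP-derived and Lig4 (2.04) in the LSK-derived means. Exon lengths of GENCODE M21 may differ from the annotation used for counting, which affects the order of genes but not the comparison between groups.

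Genes whose products work as partners were also compared as ratios of CPM per kb within each library, which do not depend on how libraries are scaled. The groups did not overlap in 7 of 9 ratios, against 47% of all pairs of tested genes with a read in every library. The pairs were chosen with earlier results of these data known. Of the 7, all but Chek1 to Chek2 hold a gene whose own groups did not overlap. The share is therefore a description and no independent result. Each of the 7 had p = 0.1 in an exact two-sided permutation test over 6 libraries, the smallest p this design allows (Benjamini-Hochberg adjusted p = 0.129 over 9 pairs), so none could pass a threshold of 0.05. The Chek1 to Chek2 ratio was 1.17, 1.06 and 1.09 across LSK 44, 45 and 46 and 0.814, 0.872 and 0.590 across GMP 5, 11 and 19. Whether this ratio lies above or below 1 depends on the exon lengths used, while the shift between the groups does not. In reads, Chek1 exceeded Chek2 in GMP 5 (1507 against 1199) and GMP 11 (1798 against 1335) but not in GMP 19 (1462 against 1604). The Atr to Atm ratio was 0.688, 0.592 and 0.649 against 0.579, 0.503 and 0.484.

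The same ratios placed 4 other pairs lower in the LSK-derived libraries. Xrcc4 to Lig4 was 1.29, 1.16 and 1.195 across LSK 44, 45 and 46 against 1.60, 1.79 and 1.77 across GMP 5, 11 and 19, a log2 difference of -0.50. Fanci to Fancd2 was 0.599, 0.594 and 0.587 against 0.712, 0.667 and 0.736. The spread of this ratio within the LSK-derived group was small (SD 0.015 on the log2 scale). Brca1 to Bard1 and Brca2 to Palb2 had log2 differences of -0.21 and -0.27. The remaining pairs, Rad50 to Mre11a and Xrcc1 to Lig3, overlapped between the groups (exact permutation p = 0.3 each).

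**Figure D4:**
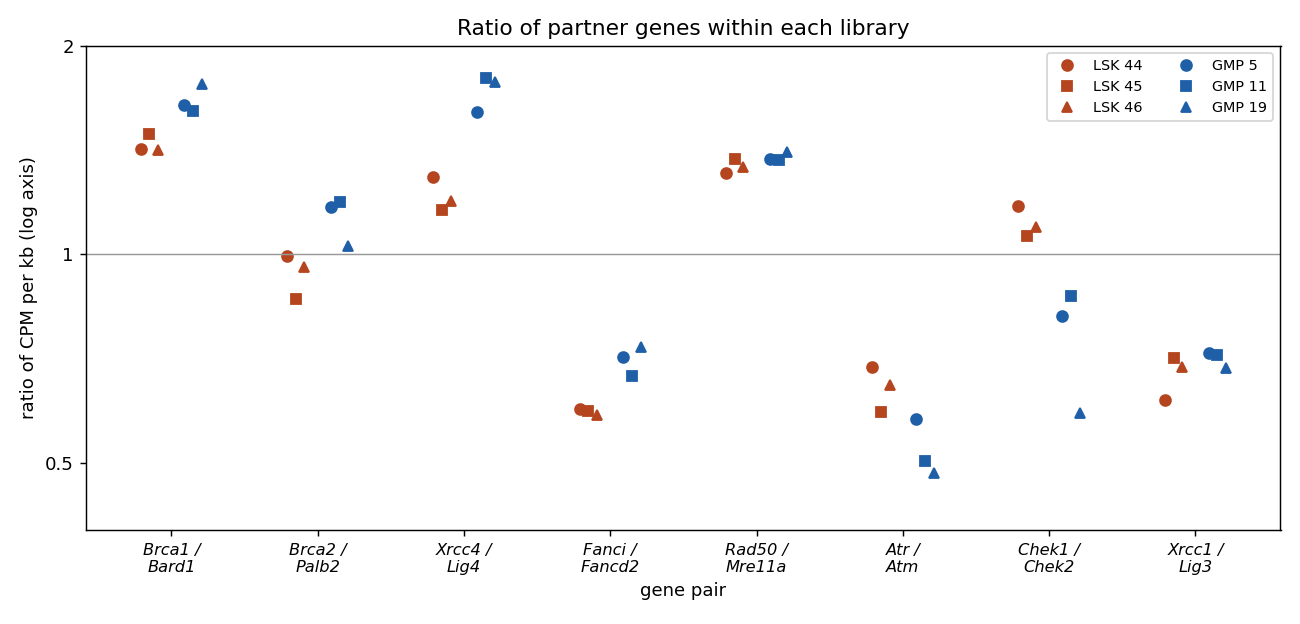
Ratio of CPM per kb of exon between partner genes (y axis, log scale) in each library for 8 of the 9 pairs, without Xrcc5 to Xrcc6, whose ratios lie far below the others. The Chek1 to Chek2 ratios are higher in every LSK-derived (red) than in any GMP-derived (blue) library.

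Of 117 other repair genes, 114 were tested, 14 rose and 10 fell in the LSK-derived libraries and 90 were not called, with a median log2 fold change of 0.01. The called share was 21.1%, below the 25.7% of all tested genes, so the calls named next are no more frequent than among genes at large. Of 10 translesion and direct reversal genes, 2 were higher and 3 lower. Rev1, a scaffold of lesion bypass, rose 2.03-fold (87.9 ± 17.5 against 43.3 ± 1.23 CPM, edgeR adjusted p = 0.00339). The bypass polymerase gene Polk fell 1.72-fold (adjusted p = 0.00439), and Alkbh2, which reverses base alkylation, fell 2.46-fold (3.73 ± 1.09 against 9.15 ± 1.30 CPM).

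Among other end joining genes, 1 was higher and 1 lower of 8 tested, both of them gap-filling polymerases. Poll, which encodes polymerase lambda, rose 1.89-fold (44.4 ± 2.96 against 23.5 ± 1.46 CPM, edgeR adjusted p = 0.00118). Polm, which encodes polymerase mu, fell 2.20-fold (6.02 ± 0.364 against 13.2 ± 2.67 CPM, adjusted p = 0.00550). Their groups did not overlap in either gene.

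Other signalling genes were called both ways, 3 higher and 3 lower of 23. Mdc1, which binds phosphorylated H2AX, fell 1.28-fold (140 ± 8.76 against 178 ± 5.30 CPM, edgeR adjusted p = 0.0133) while H2afx rose. The clamp subunit gene Rad9a (listed as Rad9) fell 1.38-fold, and its paralogue Rad9b rose 2.44-fold at a low level (3.31 ± 0.854 against 1.36 ± 0.225 CPM).

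Other homologous recombination genes were called in 5 of 26 cases, 3 higher and 2 lower. Rad51d (listed as Rad51l3) rose 1.23-fold and Rmi2, listed under an older symbol, 1.44-fold, while the helicase gene Brip1, a BRCA1 partner, fell 1.26-fold (43.6 ± 1.00 against 54.7 ± 4.07 CPM). In nucleotide excision, 2 of 17 genes were higher: Gtf2h3, a TFIIH subunit gene, rose 1.42-fold, and Ddb1, which encodes the partner of DDB2, rose 1.19-fold (790 ± 38.4 against 663 ± 44.3 CPM, edgeR adjusted p = 0.0472). Of the remaining lists, the called genes were Wdr48 (1.30-fold higher), which activates the enzyme that removes ubiquitin from FANCD2, the uracil glycosylase gene Smug1 (1.44-fold higher), and the mismatch repair genes Msh3 (1.31-fold higher) and Mlh3 (1.43-fold lower).

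Repair genes are often transcribed in S phase, so genes of replication and mitosis were set beside them. Of 38 such genes, 2 rose in the LSK-derived libraries, 7 fell and 29 were not called (5.26% higher and 18.4% lower, against 11.8% and 13.9% of all tested genes), with a median log2 fold change of 0.01. Mki67, a proliferation marker, fell 1.28-fold (547 ± 48.3 against 702 ± 34.2 CPM, edgeR adjusted p = 0.0216), E2f2 2.18-fold, E2f1 1.29-fold and the spindle checkpoint gene Bub1b 1.21-fold. Pcna, the replication clamp gene, was at 409 ± 10.4 and 409 ± 7.03 CPM, and Mcm2, a replicative helicase gene, at 413 ± 26.8 and 365 ± 29.1 CPM, and neither was called. Scaled to this list in place of TMM, Xrcc5, Ddb2, H2afx and Parp1 were again the repair genes called as higher, and Fanca was not called. Because the median of the list differed little between the groups, this scaling left fold changes nearly unchanged. The log2 fold change of Parp1 went from 0.468 to 0.474 and that of H2afx from 0.697 to 0.699. The part of proliferation in these calls was therefore not tested.

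Of 27 tested genes of the p53 pathway, the transcriptional arm of the damage response, 3 rose and 10 fell in the LSK-derived libraries and 14 were not called (11.1% higher and 37% lower, against 11.8% and 13.9% of all tested genes), with a median log2 fold change of -0.33. Ddb2 was among the 3 higher genes, beside Trp53 itself (220 ± 1.36 against 178 ± 6.45 CPM) and Sesn1, which was named after its values were seen. Cdkn1a, which encodes the cell cycle inhibitor p21, fell 1.54-fold (58.7 ± 8.90 against 90.4 ± 8.42 CPM, edgeR adjusted p = 0.0136), Bax 1.59-fold and Polk, as given above, 1.72-fold. The repair genes Ddb2 and Xpc stand on this list too, so the lists are not independent of each other. The list holds Trp53 itself as well as genes named as its targets. Whether p53 acts on Ddb2 in these cells was not tested.

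**Figure D5:**
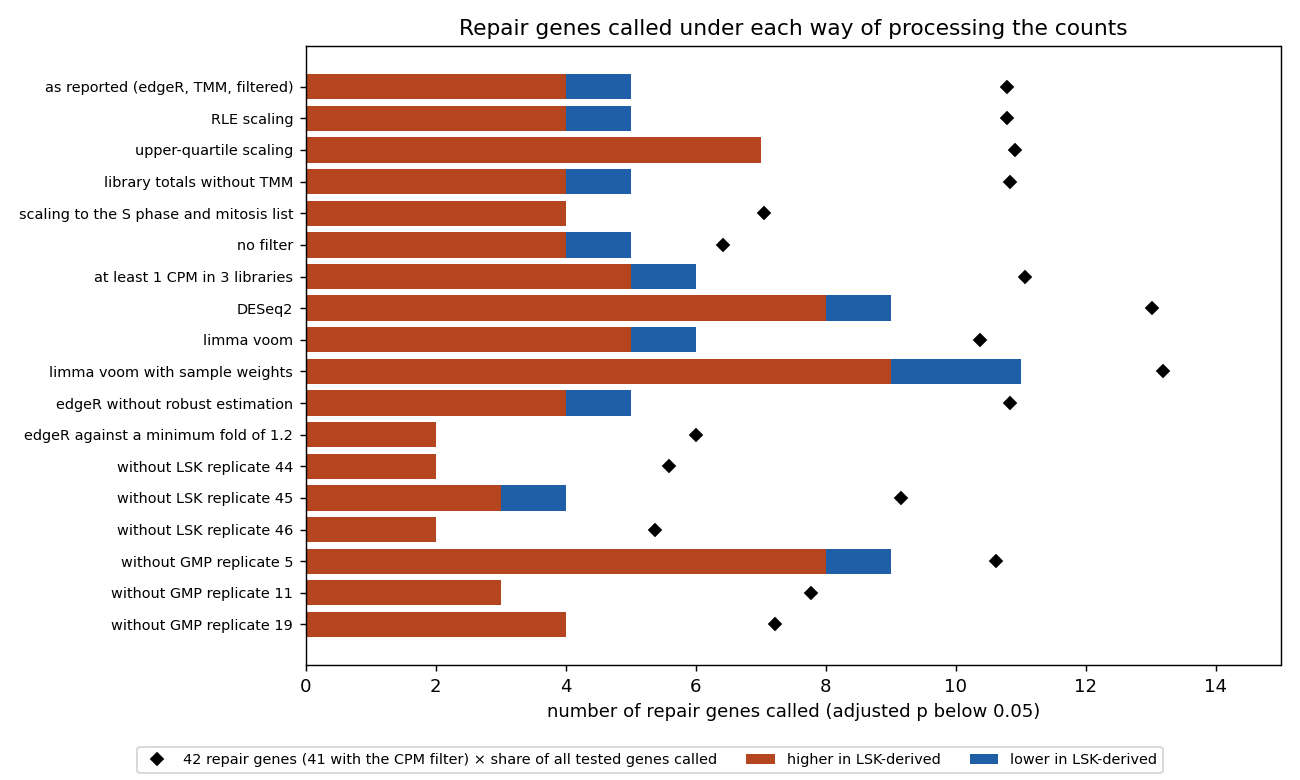
Number of repair genes called (x axis) higher (red) or lower (blue) in the LSK-derived libraries under each way of processing the counts (y axis). Diamonds give the number that the share of all tested genes called in the same fit would amount to, and they lie to the right of the bar in each of the 18 fits.

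Across ways of processing the counts, between 2 and 11 of the repair genes were called. The share of repair genes called was below the share of all tested genes in all 18 fits, at 21.4% against 31.0% by DESeq2 and 26.2% against 31.4% by limma voom with sample weights. Ddb2 was called in every fit and Xrcc5 in every fit that tested it. Leaving out LSK 44 or LSK 46 left those as the only called repair genes, 2 in each fit, while leaving out GMP 5 raised the number to 9.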

How the data were processed

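The deposited table holds, for 6 libraries, the authors' raw counts of reads per gene, not normalized. The submitters' processing notes name STAR 2.4, HTSeq 0.6.1, DESeq2 and mm9, with no role or order. Annotation and strand setting: not given in the sources used here, so reads of overlapping genes may be split. In GENCODE M21 (GRCm38), exons of 16 of the 42 repair genes overlap those of another tested gene, by 0.436% to 25.1% of their bases. Of 33924 gene rows, 12325 had 0 counts in all libraries; 3 counts amount to 0.0885 to 0.180 CPM.

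The test was edgeR 4.0.16 under R 4.3.3 (filterByExpr, TMM, robust glmQLFit, glmQLFTest, 6 libraries, no covariate), adjusted by Benjamini-Hochberg over all 13406 tested genes and called at an adjusted p below 0.05. Positive fold changes mean higher in LSK-derived libraries. The approximate SE is |log2 fold change| over the square root of F. CPM are counts over the TMM-scaled total of tested genes. Alternatives used limma 3.58.1 and DESeq2 1.42.0. The fits were tested on simulated counts. Libraries of a group were not copies of each other (lowest chi-square per df 9.70).

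The repair genes, lists, gene pairs and the rule for named genes were chosen with earlier results of these data known. By that rule values in every library are given for called genes and a list of 17 genes that holds some of them, and other lists name up to 3 called genes of smallest p, plus Mki67, Pcna, Mcm2, Trp53 and Cdkn1a.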

Additional observations from a re-analysis of the deposited data

How the results depend on the processing

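The fold change of no called repair gene changed sign in any of 17 alternatives. The reported counts are 4 repair genes higher and 1 lower, 3444 genes called in all, 14 and 10 other repair genes, 2 and 7 S phase genes and 3 and 10 p53 genes higher and lower. The number of repair genes higher and lower was 7 and 0 with upper-quartile scaling, 9 and 2 with limma voom and sample weights, and 2 and 0 against a minimum fold of 1.2, and DESeq2 gave 8 higher. Scaled to the S phase list, 0 repair genes were lower, 2254 genes were called in all, 8 and 4 other repair genes were higher and lower, 1 and 3 of the S phase list, and 6 of the p53 list were lower. Against a minimum fold of 1.2, 1916 genes were called in all, 3 and 3 other repair genes, and 0 and 1 of the S phase list. DESeq2 called 4 S phase and 5 p53 genes as higher, and with no filter 1 S phase gene was higher. The cause of these shifts was not tested, other than that a minimum fold asks for more.

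Leaving out 1 library at a time gave 2 to 8 repair genes higher (2 without LSK 44 or LSK 46, 8 without GMP 5) and 0 to 1 lower, with 1750 to 3467 genes called in all, a median log2 fold change of the repair genes of 0.06 to 0.14 and 18 to 26 repair genes with groups apart (26 without LSK 45). With 5 libraries, groups lay apart in 50% to 57.5% of all tested genes and 42.9% to 61.9% of the repair genes. Other repair genes higher ranged from 3 to 11 and lower from 4 to 12, S phase genes higher from 0 to 4 and lower from 1 to 6, and p53 genes higher from 2 to 4 and lower from 5 to 11. Over the 42 genes and 17 alternatives, 16 calls were lost and 21 gained. No paired analysis was possible because the groups share no library number. Depth limits Xrcc5 most, with 3 reads in GMP 5 and GMP 11.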
